A study of Homo sapiens with 6 samples.

Results

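The locus of PARL, MAP6D1 and ENSG00000283765 on chromosome 3 was examined in the deposited gene counts of HTori-3.1, a normal thyroid line written Htoris-3.1 in the labels. These 3 rows of the 22354 in the table were chosen from the counts of ENSG00000283765, which had reads only in the libraries labelled BMAL1 knockout, and PARL and MAP6D1 were taken along because they share exons with it. The question was whether PARL and MAP6D1 had fewer reads in those libraries. The study made RNA-seq libraries from wild type control cells and from cells given a CRISPR-Cas9 virus against BMAL1, selected with puromycin and grown from single clones, with 3 libraries in each group. Cells of both groups had received etoposide at 2 μM, a topoisomerase inhibitor used to bring about senescence, and the labels give its duration as 12 h in the treatment field and as 24 h in the protocol. How many clones the 3 knockout libraries came from is not stated, so that an effect of the knockout and a property of the clones cannot be told apart. Nothing says that the libraries of a group came from separate cultures, and p-values then measure only the spread between these samples, which may be technical. Total counts were 26893063, 27029060 and 28513703 in the control libraries and 43148059, 29860233 and 43563391 in the labelled knockout libraries.

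BMAL1, the clock transcription factor that was targeted, was read first as a check of the labels. BMAL1 had 304, 326 and 409 counts in the control libraries, and 764, 603 and 860 counts where the label was BMAL1 knockout. The groups did not overlap, and the labelled knockout libraries were the higher ones, at 19 ± 0.987 CPM (counts per 1000000 of the TMM-scaled library; SD, n = 3) against 12.7 ± 1.7 (SD, n = 3). The log2 difference was 0.58 (SE 0.11) with an adjusted p of 0.0204 in edgeR's quasi-likelihood test. The call was lost without control replicate 1 (0.5, adjusted p = 0.0896 in edgeR), control replicate 2 (0.55, adjusted p = 0.113), labelled knockout replicate 2 (0.55, adjusted p = 0.0749) or labelled knockout replicate 3 (0.56, adjusted p = 0.0598), and the adjusted p ranged from 0.000866 to 0.113 over the alternatives. The RNA level thus went against the label, and the group is called by its label throughout. RNA counts do not measure BMAL1 protein, which the study examined in its knockout cells by western blot and which was not analysed here.

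The thyroid identity of the line was checked with 7 thyroid follicular markers, of which 2 passed the low-count filter. Their summed level was 172, 173 and 200 CPM in the control libraries and 129, 149 and 173 CPM in the labelled knockout libraries, nearly all of it from the thyroid transcription factors PAX8, the most abundant, and FOXE1. NKX2-1 was at 0 in all 6 libraries, and the thyroglobulin gene TG had at most 13 counts in a library. The 6 epithelial markers, led by the keratin KRT8, summed to 2990, 3040 and 2900 CPM against 2540, 2480 and 2560 CPM, and 5 of them were tested, 3 with a higher and 2 with a lower estimate and a median log2 difference of 0.1. In edgeR 1 of the 5 passed, beside 1.43% of all rows lower, and it was KRT18 (log2 -0.5, adjusted p = 0.00583; -0.49 and 0.0524 without control replicate 2; named after its values were seen). DESeq2 called 2 lower, beside 2.6% of all rows, the other being KRT8 (log2 -0.28 and adjusted p = 0.0507 in edgeR, 0.003 with DESeq2, and 0.00661 in edgeR without labelled knockout replicate 1). The 5 fibroblast markers came almost wholly from COL1A1 and summed to 903, 907 and 770 CPM against 699, 913 and 966 CPM, with DCN and LUM at 0 in all libraries. The 3 endothelial markers, led by VWF, summed to between 1.11 and 2.07 CPM in every library. The 4 immune markers summed to 6.48, 6.5 and 6.67 CPM against 2.62, 2.13 and 2.89 CPM, nearly all from PTPRC (log2 -1.43, adjusted p = 0.00127 in edgeR), while CD3E was at 0 throughout. The part of these marker differences in the results on the locus was not tested.

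PARL encodes a rhomboid protease of the inner mitochondrial membrane, which cleaves substrates within the membrane, among them the kinase PINK1 and the phosphatase PGAM5, and so acts in mitochondrial quality control. MAP6D1 encodes a small protein related to the microtubule-stabilising protein MAP6. ENSG00000283765 is annotated as a readthrough gene, that is, a transcript that starts in a gene, skips its last exon and is spliced into the next gene downstream on the same strand.

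All 3 genes lie on the reverse strand of chromosome 3 (hg38, GENCODE v44). PARL spans chr3:183829271-183884933, MAP6D1 lies downstream of it at chr3:183815922-183825594, and ENSG00000283765 covers both at chr3:183815568-183884889. The ENSG00000283765 transcript has 11 exons, of which exons 2 to 9 have the bounds of PARL exons 2 to 9 and exon 10 has those of MAP6D1 exon 2. It lacks PARL exon 10 and MAP6D1 exon 1. Of its 3058 exonic bases, 1071 were also exonic in PARL, 1633 were also exonic in MAP6D1 and 354 belonged to it alone, whereas 1197 of 2268 exonic bases belonged to PARL alone and 729 of 2362 to MAP6D1 alone.

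**Figure D1:**
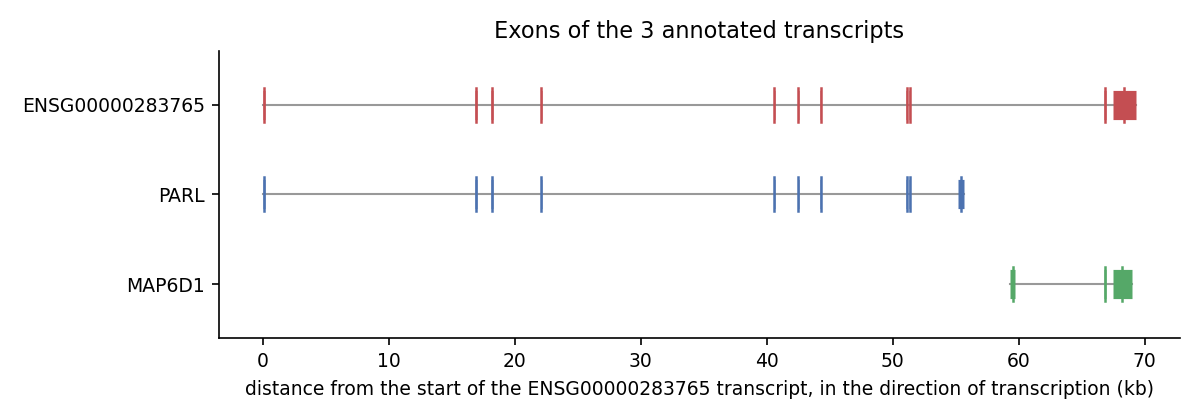
Exons (coloured) and introns (grey lines) of ENSG00000283765, PARL and MAP6D1, drawn to scale in kb from the start of the ENSG00000283765 transcript in the direction of transcription, with a thin mark at each exon's centre. The upper transcript shares exons 2 to 9 with PARL and then exon 2 of MAP6D1.

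The exon junctions that tell the 3 transcripts apart are shown because the other exons of ENSG00000283765 are almost wholly shared. Each line gives 30 coding bases on either side of a junction, 5′ to 3′ on the reverse strand of hg38, and capitals mark MAP6D1 exon 2. The first joins PARL exon 9 (chr3:183833492-183833521) to MAP6D1 exon 2 (chr3:183818082-183818111) over an intron of 15380 bases, the next joins PARL exon 9 to PARL exon 10 (chr3:183829680-183829709) over 3782 bases, and the last joins MAP6D1 exon 1 (chr3:183825147-183825176) to MAP6D1 exon 2 over 7035 bases.
ENSG00000283765 exons 9 and 10: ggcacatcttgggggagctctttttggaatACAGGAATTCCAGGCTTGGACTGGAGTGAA
PARL exons 9 and 10: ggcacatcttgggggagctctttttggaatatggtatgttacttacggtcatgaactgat
MAP6D1 exons 1 and 2: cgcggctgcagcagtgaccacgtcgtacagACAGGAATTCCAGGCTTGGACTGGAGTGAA

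The first 30 bases of the ENSG00000283765 junction are those of PARL and the last 30 are those of MAP6D1, so that only a read crossing the junction, or one in the 354 bases of its own, belongs to it alone. The annotated coding sequence of ENSG00000283765 gives 408 residues, against 379 for PARL and 199 for MAP6D1. It shares 343 residues from the start with PARL and 65 residues to the end with MAP6D1, in whose frame it reaches the same stop codon. Junction reads were not analysed here, and how the authors' counting divided reads in shared exons is not given in the sources used here. Strandedness is not stated either, and the division of reads among the 3 rows is therefore uncertain.

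ENSG00000283765 had 0, 0 and 0 counts in the control libraries and 282, 366 and 316 in the labelled knockout libraries. These are the values that chose it, and they are given as a description with no test. In CPM they were 6.6, 12 and 7.13 in the labelled knockout libraries, with a mean of 8.57 ± 2.97 (SD, n = 3), and replicate 2 was the highest. A count of 0 allowed up to 0.112, 0.112 and 0.107 CPM in the control libraries at a floor of 3 counts per library. Against the highest of these the labelled knockout mean was at least 76.4-fold higher and the lowest labelled knockout library at least 58.9-fold higher. The floors, and the Clopper-Pearson intervals of the shares below, cover counting error only. Across the table, 98 of 22354 rows (0.438%) had reads in all 3 labelled knockout libraries and in no control library, and 9 had the reverse. The labelled knockout libraries were the deeper ones, and with every library thinned to the lowest depth the numbers were 80 and 15. Among the 98 the lowest count of ENSG00000283765, 282, was the highest, and those of MSTRG.21682, SPIB, UNC45B and NFAM1 were 41, 8, 6 and 6.

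MAP6D1 had 165, 174 and 151 counts in the control libraries and 190, 93 and 185 in the labelled knockout libraries. Scaled to library size these were 6.15, 6.5 and 5.39 CPM against 4.45, 3.05 and 4.17 CPM. Every labelled knockout library lay below every control library, with replicate 2 the lowest. The means were 6.01 ± 0.569 and 3.89 ± 0.744 CPM (SD, n = 3 each). The log2 difference was -0.62 (SE 0.17, approximate 95% interval -0.96 to -0.29), and its adjusted p of 0.0837 in edgeR missed the threshold of 0.05. It passed with DESeq2 (adjusted p = 0.042) and without labelled knockout replicate 1 (log2 -0.73, adjusted p = 0.0494 in edgeR), and over the alternatives that left its counts in their own row the adjusted p ranged from 0.042 to 0.265. The 2-sided exact permutation test of the CPM gave p = 0.1, the smallest it can give with 3 libraries against 3. For reference, 1715 of 14860 rows tested (11.5%) lay lower in the labelled knockout libraries with no overlap and 1750 (11.8%) lay higher, so that an absence of overlap was common in this table. In bulk RNA, fewer cells with a transcript and less of it per cell cannot be told apart.

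PARL had 1285, 1338 and 1365 counts in the control libraries and 2367, 1353 and 2054 in the labelled knockout libraries. These were 47.9, 50 and 48.7 CPM against 55.4, 44.3 and 46.3 CPM. The groups overlapped, with labelled knockout replicate 1 above all control libraries and replicates 2 and 3 below them. The means were 48.9 ± 1.08 and 48.7 ± 5.92 CPM (SD, n = 3 each). The log2 difference was -0.0045 (SE 0.1, approximate 95% interval -0.19 to 0.18, adjusted p = 0.988 in edgeR). No difference was detected, and the interval bounds it only roughly on both sides. Of PARL and MAP6D1, 0 of 2 passed an adjusted p under 0.05 in edgeR, beside 373 of 14860 rows in either direction (2.51%), 212 lower (1.43%) and 161 higher (1.08%). With library size as the only scaling 185 were higher and 155 lower. With a library left out in turn, the number of rows called in edgeR, and the shares with it, ranged from 113 without control replicate 2 to 635 without labelled knockout replicate 1. At an unadjusted p under 0.05 in edgeR 1 of the 2 was counted, MAP6D1, beside 1156 lower (7.78%) and 1350 higher (9.08%) of the 14860 rows. DESeq2 also called 1 of the 2, MAP6D1, beside 387 rows lower (2.6%) and 310 higher (2.09%), and limma-voom called 0 of the 2, beside 153 lower (1.03%) and 102 higher (0.686%).

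**Figure D2:**
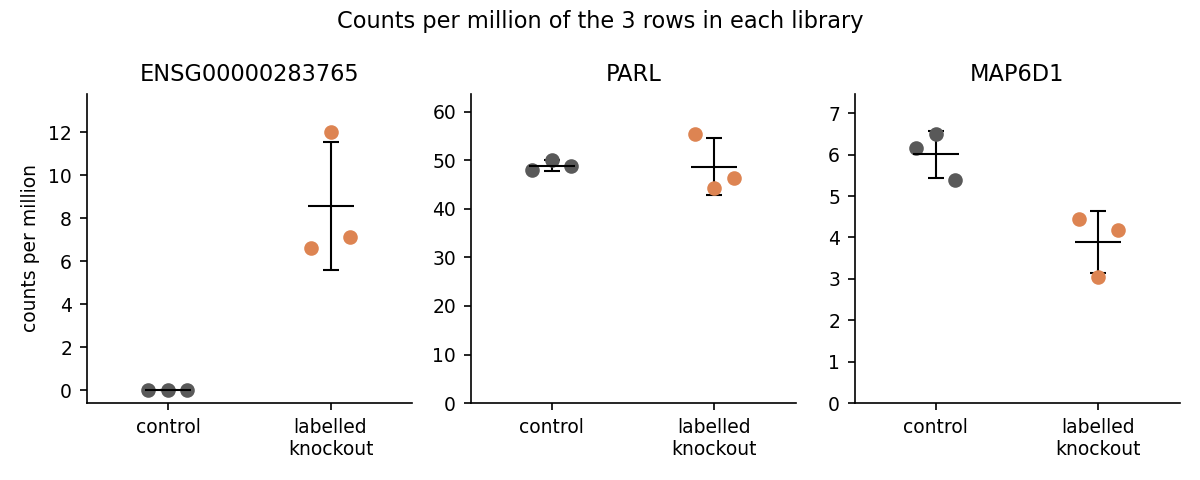
TMM-scaled CPM of each row in the 3 control (grey) and 3 labelled knockout (orange) libraries, with the mean and SD in black, each panel on its own scale. MAP6D1 lies at 5.39 to 6.5 in control and 3.05 to 4.45 in labelled knockout libraries, and PARL overlaps between groups.

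Per kb of exon, PARL was the most abundant of the 3 rows at 21.5 CPM per kb in both groups. MAP6D1 stood at 2.55 CPM per kb in control and 1.65 in labelled knockout libraries. ENSG00000283765 stood at 2.8 CPM per kb in labelled knockout libraries, above MAP6D1 there. These lengths include the shared exons, whose reads could be counted in more than 1 way.

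The reads of the locus were then summed over the 3 rows. ENSG00000283765 held 9.93% of them in labelled knockout replicate 1 (exact Clopper-Pearson 95% interval 8.86 to 11.1), 20.2% in replicate 2 (18.4 to 22.1) and 12.4% in replicate 3 (11.1 to 13.7), a mean of 14.2% ± 5.36 (SD, n = 3). In the control libraries the share was 0, which at the floor of 3 counts per library allows up to 0.207%, 0.198% and 0.198%. Labelled knockout replicate 2 had the highest share of ENSG00000283765 and the lowest CPM of both MAP6D1 and PARL. Reads of MAP6D1 and PARL are in the denominator of that share, so that fewer of them raise it. This is a description of 1 library, and a link was not tested. ENSG00000283765 had 1.48, 3.94 and 1.71 times the counts of MAP6D1 in the 3 labelled knockout libraries.

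The summed level of the 3 rows was 54, 56.5 and 54.1 CPM in the control libraries and 66.5, 59.3 and 57.6 CPM in the labelled knockout libraries. The sum contains the row that chose the locus, so its difference of 0.16 on the log2 scale (SE 0.082) is a description and no test is attached. With ENSG00000283765 left out, MAP6D1 and PARL together stood at 54.9 ± 1.41 CPM in control and 52.6 ± 6.51 CPM in labelled knockout libraries (SD, n = 3 each). That log2 difference was -0.061 (SE 0.1, approximate 95% interval -0.25 to 0.13, adjusted p = 0.802 in edgeR), within the spread of the replicates. With ENSG00000283765 added to MAP6D1, the counts were 165, 174 and 151 in control and 472, 459 and 501 in labelled knockout libraries, or 6.01 ± 0.569 and 12.5 ± 2.23 CPM (SD, n = 3 each). The direction for MAP6D1 thus turned with the row to which these reads were given, from a log2 difference of -0.62 to 1.05, and the latter again contains the row that chose the locus. Added to PARL, the same counts moved the log2 difference from -0.0045 to 0.23.

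**Figure D3:**
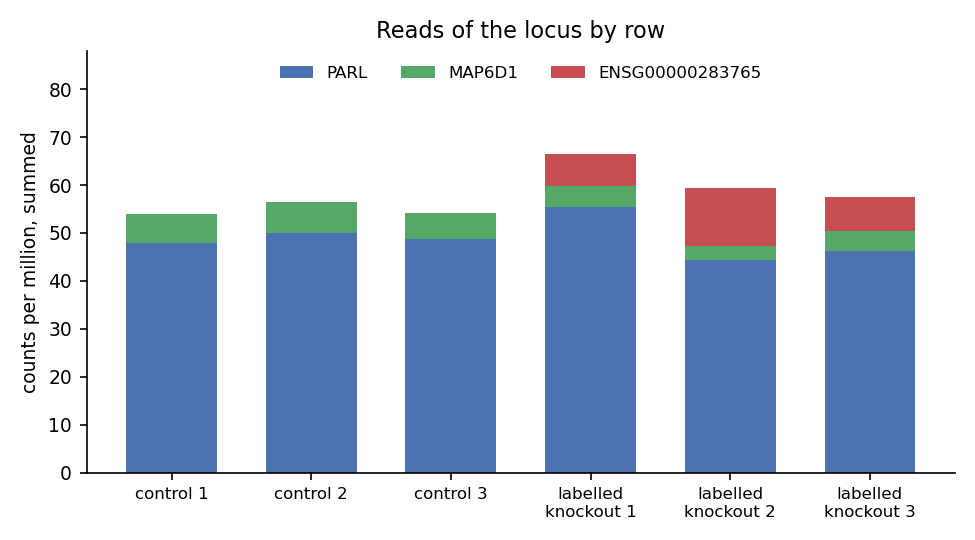
Summed CPM of PARL (blue), MAP6D1 (green) and ENSG00000283765 (red) in each of the 6 libraries. The red part is present only in the labelled knockout libraries, where the whole bar stands at 57.6 to 66.5 against 54 to 56.5 in control.

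Leaving ENSG00000283765 aside, MAP6D1 made up 11.4%, 11.5% and 9.96% of the reads of MAP6D1 and PARL in the control libraries and 7.43%, 6.43% and 8.26% in the labelled knockout libraries. The groups did not overlap, and the labelled knockout libraries were lower. The means were 10.9% ± 0.859 and 7.37% ± 0.917 (SD, n = 3 each), a difference of -3.57 percentage points (2-sided exact permutation p = 0.1, the smallest possible). The difference stayed between -4.07 and -3.1 points when each library was left out in turn.

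The genes around the locus were compared in the same fit. Of 33 rows within 1 Mb, 24 passed the low-count filter, 17 with a higher and 7 with a lower estimate in the labelled knockout libraries. The median log2 difference was 0.088, beside 0.037 over the 750 tested rows of chromosome 3 apart from the members, with these 24 among them, and 0.0099 over all rows tested. An adjusted p under 0.05 in edgeR was reached by 1 of the 24, which was higher, and by 0 that were lower (1.08% and 1.43% over all rows). DESeq2 (2.09% and 2.6% over all rows) and limma-voom (0.686% and 1.03%) gave the same numbers, and at an unadjusted p under 0.05 the edgeR counts were 4 and 0 (9.08% and 7.78% over all rows). Within 0.5 Mb, 16 rows were tested and 0 passed with any of the 3 tools, nor did any in edgeR at an unadjusted p under 0.05.

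YEATS2, a chromatin reader whose gene ends 2.94 kb beyond the MAP6D1 side of the locus, stood at 71.1 ± 1.54 CPM in control and 74.5 ± 6.81 CPM in labelled knockout libraries (SD, n = 3 each; log2 0.067, SE 0.084, adjusted p = 0.749 in edgeR). ABCC5, an ATP-driven export pump and the nearest gene on the PARL side at 35 kb, stood at 67.6 ± 3.09 and 65.2 ± 4.41 CPM (log2 -0.052, SE 0.081, adjusted p = 0.802 in edgeR). Farther out on the MAP6D1 side, the log2 differences were 0.052 for the ubiquitin ligase adaptor KLHL24, 0.27 for the exchange factor MCF2L2 and 0.15 for the glycosyltransferase B3GNT5. On the PARL side they were -0.088 for the translation factor subunit EIF2B5, 0.15 for the Wnt signalling protein DVL3 and 0.1 for the clathrin adaptor subunit AP2M1. None of these 8 genes passed, with adjusted p from 0.385 to 0.863 in edgeR. LAMP3, a lysosomal membrane protein gene at 652 kb, was the row that passed. It had 29, 45 and 40 counts in control and 188, 116 and 163 in labelled knockout libraries, with no overlap in CPM (1.4 ± 0.302 and 3.96 ± 0.388, SD, n = 3 each; log2 1.5, SE 0.2, adjusted p = 0.00315 in edgeR).

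**Figure D4:**
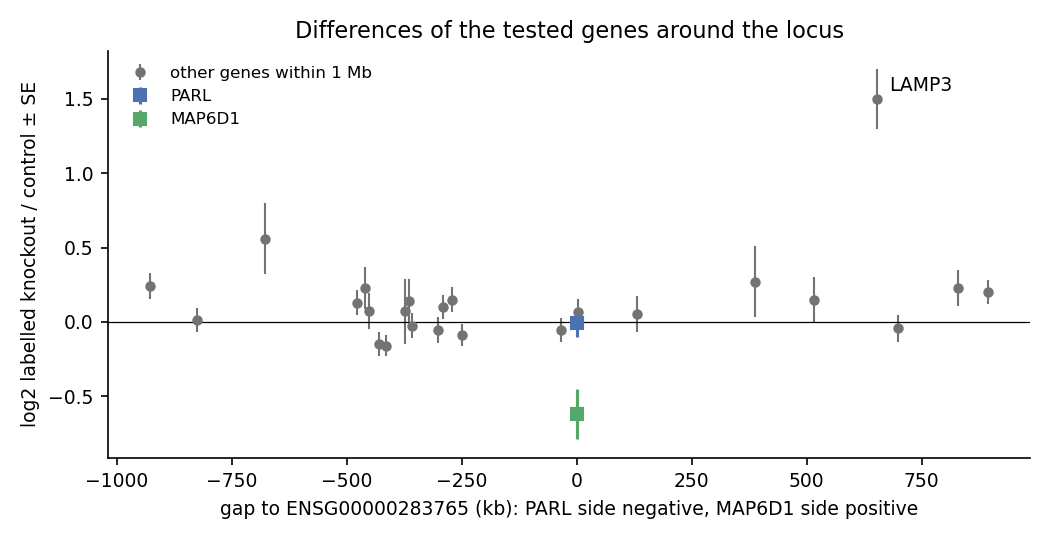
Log2 difference of labelled knockout over control (SE bars) of the 24 tested genes within 1 Mb (grey) against their gap to ENSG00000283765 in kb, with PARL (blue) and MAP6D1 (green) at 0. MAP6D1 lies at -0.62, below all the grey points, which run from -0.16 to 1.5 for LAMP3.

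Genes that act with PARL were read from lists. Of 9 PARL substrates and proposed substrates, all were tested, with a median log2 difference of -0.11. With an adjusted p under 0.05 in edgeR there were 0 on the higher and 1 on the lower side (1.08% and 1.43% over all rows), as against 2 lower with DESeq2 (2.6% over all rows) and 0 with limma-voom (1.03%). The other gene lower with DESeq2 was DIABLO, named after its values were seen (log2 -0.32, adjusted p = 0.0218 with DESeq2 and 0.0653 with edgeR). In edgeR DIABLO passed after thinning (adjusted p = 0.0471) and without labelled knockout replicate 1 (0.023). The gene called lower in edgeR was PGAM5, the mitochondrial phosphatase. It stood at 85.1, 88.1 and 78.7 CPM in control and 60.6, 66.1 and 68.8 CPM in labelled knockout libraries. The groups did not overlap, and the log2 difference was -0.37 (SE 0.082, adjusted p = 0.0394 in edgeR). The call was lost without control replicate 1 (adjusted p = 0.142 in edgeR), control replicate 2 (0.188), control replicate 3 (0.0628), labelled knockout replicate 2 (0.126) or labelled knockout replicate 3 (0.0559), and also with library size only (0.0657), limma-voom (0.0544) and a replicate block (0.0934). In all of these the log2 difference lay between -0.41 and -0.33. PINK1, the kinase that marks damaged mitochondria, stood at 132 ± 12.7 and 117 ± 22.5 CPM (SD, n = 3 each; adjusted p = 0.54 in edgeR), with overlap. The lipid carrier STARD7 had a log2 difference of -0.11 and the fusion GTPase OPA1 one of 0.12, and neither passed (adjusted p = 0.462 and 0.436 in edgeR).

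The other 4 lists held 0 calls in either direction in the main edgeR fit and in limma-voom. DESeq2 called 1 gene lower in each but the mitophagy list, where it called 0, beside 2.6% of all rows. These genes were LACTB, DERL1 and DCLK1, of which LACTB and DCLK1 are named after their values were seen. DCLK1 had a log2 difference of -0.65 (adjusted p = 0.0511 in edgeR, 0.00293 with DESeq2). In edgeR DCLK1 passed with library size only (0.0492), at least 10 counts (0.0491), thinning (0.0456) and without labelled knockout replicate 1 (0.0277). LACTB (log2 -0.31, adjusted p = 0.0896 in edgeR) passed in edgeR without labelled knockout replicate 1 (0.0415). Of 17 mitochondrial proteases and their scaffolds the median log2 difference was -0.061, with an unadjusted p under 0.05 for 1 on the higher and 4 on the lower side (9.08% and 7.78% over all rows) and a smallest adjusted p of 0.0896. The most abundant were the inner membrane protease YME1L1 (adjusted p = 0.778), the prohibitins PHB2 (0.262) and PHB1 (0.714), and the processing peptidase subunit PMPCB (0.313). Of 13 rhomboid proteases and rhomboid-like proteins the median was -0.052, with an unadjusted p under 0.05 for 0 on the higher and 2 on the lower side (9.08% and 7.78% over all rows), among them the derlin DERL1 at 105 ± 5.89 against 87.9 ± 1.35 CPM (SD, n = 3 each; adjusted p = 0.102 in edgeR). DERL1 passed with DESeq2 (adjusted p = 0.0499), while DERL2, RHBDD2 and UBAC2 had adjusted p of 0.689, 0.727 and 0.283 in edgeR.

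Of 20 mitophagy genes the median log2 difference was 0.036, with 0 at an unadjusted p under 0.05. Their most abundant members were the autophagy receptor SQSTM1 (631 ± 48.3 and 627 ± 37.9 CPM, SD, n = 3 each), the channel VDAC1, the import receptor TOMM20 and the fusion GTPase MFN2, with adjusted p from 0.388 to 0.972 in edgeR. Of 23 microtubule-binding proteins, a list by function with MAP6 in it, 21 were tested, with a median of -0.056. In edgeR an unadjusted p under 0.05 was reached by 3 on the higher and 1 on the lower side (9.08% and 7.78% over all rows). The smallest adjusted p was 0.0511 in edgeR. MAP1B, MAPRE1, MAP4 and MAP7D1 were the most abundant, with adjusted p from 0.383 to 0.992 in edgeR.

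The rows most like PARL over the 6 libraries, by Pearson correlation of log2 CPM among 13340 rows with a mean of at least 1 CPM, were GNL3 (r = 0.994), VRK1 (r = 0.992) and SLC25A5 (r = 0.99). Those most like MAP6D1 were RRS1 (r = 0.99), OTUB1 (r = 0.988) and MAPKAPK3 (r = 0.987). The correlation between PARL and MAP6D1 was 0.408. These are descriptions over 6 libraries that include the difference between groups. The highest of 13340 correlations over so few libraries can be this high for unrelated rows.

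Other rows that share exons, whether annotated as readthrough genes or not, were read to set the counts of ENSG00000283765 beside them. In the table, 770 rows belonged to genes that share exonic bases on the same strand with at least 2 other rows, and ENSG00000283765 is among them. Of these, 3 (0.39%, beside 0.438% of all rows) had reads in all labelled knockout libraries and in no control library, and 3 had the reverse. Under a minimum of 5 counts for every library of the group that had reads, the numbers were 1 and 0. The 1 was ENSG00000283765, which had been chosen for this pattern, so that its presence here is no evidence. Over all rows of the table that minimum left 15 and 1. Of the 305 shared-exon rows that reached 50 counts in a library, 37 (12.1%) had another library at 0, as against 5 of 12245 (0.0408%) rows that share exons with fewer than 2 others. These sets were not matched for abundance, and some of the 37 reached little more than 50 counts, such as FMC1-LUC7L2 at 62. The zeros lay in control libraries only for 12 of the 37, in labelled knockout libraries only for 6 and in both groups for 19.

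Examples chosen after their values were seen show the range among such rows. NME1-NME2, a readthrough of a pair of nucleoside diphosphate kinase genes, had 818, 219 and 0 counts in control and 147, 731 and 0 in labelled knockout libraries. BIVM-ERCC5 had 7, 0 and 0 counts in control and 536, 1125 and 10 in labelled knockout libraries. ISY1-RAB43 had 0, 0 and 0 counts in control and 176, 0 and 164 in labelled knockout libraries. Others of the 37 were closer to even within the labelled knockout libraries, such as ENSG00000285991, with 0, 2 and 328 counts in control and 332, 267 and 358 in labelled knockout libraries.

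The spread within groups was read for each shared-exon row alone and summed with its partners. Over the 305 rows that reached 50 counts, the median coefficient of variation (the SD pooled over both groups, as a percentage of the mean of all 6 libraries) was 22.3% for the row alone and 8.08% for the sum, which was the lower in 259 of 305. Over the 268 rows with no library at 0 the medians were 18.1% and 7.94%, and the sum was the lower in 222. Over the 37 with a library at 0 they were 133% and 8.73%, but these rows were picked for a 0 beside a high count, which fixes a large spread of the row alone. A sum is dominated by its most abundant row, and some narrowing follows from adding rows together. The rows are not independent loci, because each row of a locus was counted. The same sum could thus enter more than once, as for PPAN, P2RY11 and PPAN-P2RY11 (8.08% each). ENSG00000283765 is 1 of the 37, and no value is given for it, because the zeros that chose it enter this measure. With gene counts alone, reads of a readthrough transcript and reads of PARL and MAP6D1 counted in its row cannot be told apart.

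**Figure D5:**
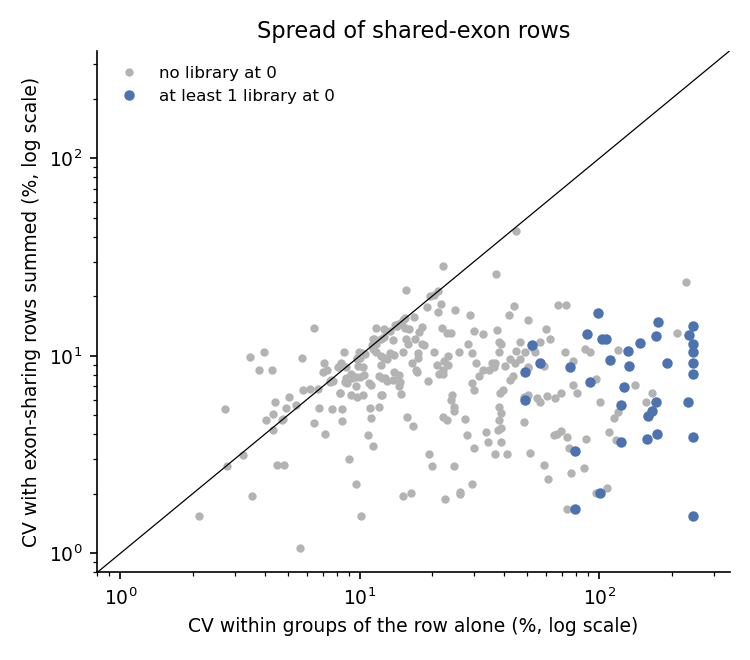
Coefficient of variation within groups of 305 shared-exon rows that reach 50 counts, alone (x axis) and summed with their exon-sharing rows (y axis), both in percent on log scales, with the line of equality. Rows with a library at 0 are in blue, and 259 of the 305 lie below the line.

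The promoter of PARL was the only one of the 3 found in the RefSeq promoter table (hg38), and its 300 bases held no CACGTG on either strand, the E-box that BMAL1 can bind, as against 7.26% of 35116 promoters of that length that held it. MAP6D1 and ENSG00000283765 had no entry there.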

How the data were processed

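RNA was sequenced in 6 libraries, 3 control and 3 labelled BMAL1 knockout. The authors deposited whole-number counts of reads per gene, mapped to hg38, not normalized and not pooled. The submitters' processing notes name fastp 0.20.1 and HISAT2 2.0.4, and the methods name fastp for mapping and HISAT2 for counting. The annotation, the strandedness and the treatment of shared exons are not given in the sources used here. Of 22354 rows, 19999 matched GENCODE v44 by name, 2310 carried the prefix MSTRG, StringTie's default for assembled loci, and 45 were neither.

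TMM-scaled CPM, log2 differences and 2-sided p-values were computed with edgeR 4.0.16 under R 4.3.3 (quasi-likelihood, robust, group only). The 14860 rows kept by filterByExpr were tested, with Benjamini-Hochberg adjustment across all of them. Log2 CPM used a prior count of 2. The fitting code was tested on simulated data. Approximate intervals of log2 differences were taken from the SE under a normal distribution and are too narrow for so few libraries. Shares had exact Clopper-Pearson 95% intervals, and single values had exact permutation tests (Python 3.11.15, scipy 1.17.1). Depth ranged from 26893063 to 43563391 counts. Replicates of a group differed by 5.41 to 45 times the variance of counting alone, so none was a library deposited again.

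Named genes were the 3 rows, BMAL1, the 4 nearest tested genes on each side and any within 1 Mb with an adjusted p under 0.05, of each pathway list those with an adjusted p under 0.05 (up to 8) filled to 4 with the most abundant, of each marker list the most abundant, the 3 rows most correlated with PARL and with MAP6D1, and the rows at 0 in control with the highest minimum counts, of which some are not reported here. The members, lists and tests were chosen with earlier results of these data known. The alternatives tried were scaling by DESeq2's median-of-ratios factors or by library size alone, testing rows without a filter or with a minimum of 10 counts per library, DESeq2 1.42.0, limma-voom (limma 3.58.1), a replicate block, leaving out each library, thinning to the smallest total, other sums of the rows, a window of 0.5 Mb, the window without overlapping genes, and a count minimum of 5. The annotation's readthrough tag in place of shared exons was an alternative chosen after seeing the data.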

Additional observations from a re-analysis of the deposited data

How the results depend on the processing

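MAP6D1 kept its direction in the 14 alternatives that left its counts in their own row and passed the threshold in 2 of them. Its log2 difference was -0.62 with DESeq2 (adjusted p = 0.042), -0.73 to -0.48 with a library left out, and 1.05 with ENSG00000283765 added, a description, since that sum contains the row that chose the locus. PARL passed in 0 of the 14 that left its counts in their own row. Its estimate near 0 changed sign with library size only (0.022), no filter (0.0012), ENSG00000283765 added (0.23) and a library left out (-0.11 to 0.058). The locus total was -0.061 without ENSG00000283765 and 0.09 to 0.2 with a library left out. BMAL1 passed in 10 of 14 alternatives (0.5 to 0.7 with a library left out).

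Rows called numbered 373, and 697 with DESeq2. With a library left out they ranged from 113 to 635: 166, 113 and 141 without control replicates 1, 2 and 3, and 635 and 162 without labelled knockout replicates 1 and 2. The neighbours' median was 0.12 with library size only and 0.067 to 0.1 with a library left out. Shared-exon rows with reads in the labelled knockout libraries only numbered 3, and 1 after thinning, 1 with at least 5 counts and 3 by the readthrough tag, chosen after seeing the data. The share of ENSG00000283765 ranged from 11.2% to 16.3%, lowest without labelled knockout replicate 2.

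Of 532 values for 38 other named genes, 487 kept direction and side of the threshold and 23 changed sign. Those were SQSTM1 (0.02), TOMM20 (0.0059), MAPRE1 (0.024) and COL1A1 (0.03) with library size only, MAPRE1 (0.003) and COL1A1 (0.0032) with no filter, MAPRE1 (0.00098) and COL1A1 (0.0024) with at least 10 counts, and COL1A1 (0.0017) after thinning. With a library left out, ranges crossing 0 were -0.0055 to 0.15 for KLHL24, -0.2 to 0.00037 for DERL2, -0.066 to 0.037 for SQSTM1, -0.1 to 0.03 for TOMM20, -0.12 to 0.059 for MAPRE1 and -0.093 to 0.13 for COL1A1. The remaining values crossed the threshold without a change of sign, in PGAM5, DERL1, KRT8, KRT18, DIABLO, LACTB and DCLK1. The causes were not tested.

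Replicate numbers did not pair the samples (correlations of same-numbered libraries -0.09, -0.052 and -0.005). With a replicate block, 277 rows were called, the log2 differences were -0.63 for MAP6D1 (adjusted p = 0.109 in edgeR), -0.011 for PARL, 0.15 for the locus total and 0.59 for BMAL1, and among these named genes the call of PGAM5 was lost and no other call changed.

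A row with 93 to 190 counts, as MAP6D1 had, carries more counting error than PARL, and reads in shared exons cannot be told apart from gene counts alone.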
